A study of Homo sapiens with 9 samples.

Results

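The genes described here are the 113 of 20030 genes in the count table whose deposited pathway annotation names Lysosome and does not name Oxidative phosphorylation. The Lysosome entry stood on 123 genes, and the 10 that also carried the oxidative phosphorylation entry, all subunits of the proton pump, were left out. By role, 54 members were classed with the hydrolases (18 proteases, 17 glycosidases, 8 genes of the sulfatase class and 11 enzymes that cut lipids, nucleic acids or phosphate esters). The sulfatase class includes the sulfatase modifying factor SUMF1, which is not itself a hydrolase. A further 22 encode proteins of the lysosomal membrane, 32 belong to the machinery that sorts proteins to the lysosome, 3 are activator proteins and 2, NPC1 and NPC2, export cholesterol.

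RNA was sequenced from 3 groups of 3 libraries each. MHCC97L is a human hepatocellular carcinoma cell line of high metastatic potential. MHCC97L-Src is a line derived from it that stays resistant to 4 μmol/L saracatinib, an inhibitor of the kinase Src, after culture in rising concentrations of the drug. MHCC97L-Oxa is a derived line resistant to oxaliplatin, a platinum compound that damages DNA, at 2 μmol/L. The labels give the treatment as none for MHCC97L, saracatinib for MHCC97L-Src and oxaliplatin for MHCC97L-Oxa. The sources used here do not say whether drug was present at harvest. Drug exposure and selection of a resistant line therefore cannot be told apart. Each derived line is one selected population. The labels name no separate cultures, while the study speaks of independent experiments for MHCC97L and MHCC97L-Src, and the p-values measure the spread between these libraries, part of which may be technical. The comparisons ask how each resistant line differs from its parent and how the resistant lines differ from each other. Both comparisons with MHCC97L use the same 3 MHCC97L libraries.

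The lysosome is the acidic compartment in which cells break down proteins, sugars, lipids and nucleic acids. Most of its soluble hydrolases receive a mannose 6-phosphate tag in the Golgi, bind a receptor and travel in clathrin-coated vesicles assembled with adaptor complexes. Cholesterol freed from lipoproteins by the acid lipase LIPA is handed by the soluble protein NPC2 to the membrane protein NPC1, which passes it out of the lysosome. Many lysosomal genes respond to transcription factors of the MiT/TFE family, such as TFEB, which bind the letters CACGTG and, with extended flanks, TCACGTGA.

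The letters CACGTG stood in 18 of 85 Lysosome genes with a RefSeq promoter window (21.2%), and in 2030 of all 27305 windows (7.43%). Each window ran from 250 bases before to 50 bases after a gene's start on GRCh38.p14, and both strands were read, which for these palindromes is the same search. The longer TCACGTGA, which contains CACGTG, stood in 10 of the 85 (11.8%) and in 283 of all windows (1.04%). The 250 bases before the start are shown for 5 genes on which the results turn. These are CTSF on the minus strand (chr11:66568607-66568856), CTSA on the plus strand (chr20:45891085-45891334), GNPTG on the plus strand (chr16:1351681-1351930), CTSH on the minus strand (chr15:78945047-78945296) and NPC2 on the minus strand (chr14:74493513-74493762). Capitals mark TCACGTGA where present and CACGTG elsewhere.
CTSF: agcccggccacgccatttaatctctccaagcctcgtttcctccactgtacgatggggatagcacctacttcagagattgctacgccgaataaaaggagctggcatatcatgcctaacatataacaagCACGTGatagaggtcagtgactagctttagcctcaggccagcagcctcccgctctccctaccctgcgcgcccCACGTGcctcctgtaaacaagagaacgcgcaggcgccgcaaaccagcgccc
CTSA: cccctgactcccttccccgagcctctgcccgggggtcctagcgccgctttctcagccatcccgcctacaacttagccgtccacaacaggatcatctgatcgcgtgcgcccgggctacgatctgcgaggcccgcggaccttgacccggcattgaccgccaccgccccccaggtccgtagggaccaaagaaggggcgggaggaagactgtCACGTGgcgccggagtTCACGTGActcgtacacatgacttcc
GNPTG: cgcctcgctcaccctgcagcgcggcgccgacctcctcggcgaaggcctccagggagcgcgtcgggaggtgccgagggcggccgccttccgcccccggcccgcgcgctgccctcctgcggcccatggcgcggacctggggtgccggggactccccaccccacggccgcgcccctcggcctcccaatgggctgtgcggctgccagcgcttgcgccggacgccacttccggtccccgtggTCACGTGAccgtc
CTSH: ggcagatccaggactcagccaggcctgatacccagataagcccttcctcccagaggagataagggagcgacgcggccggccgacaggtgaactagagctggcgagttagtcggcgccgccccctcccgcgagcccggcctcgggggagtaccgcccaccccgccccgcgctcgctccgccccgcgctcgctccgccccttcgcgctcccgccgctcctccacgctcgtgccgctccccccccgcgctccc
NPC2: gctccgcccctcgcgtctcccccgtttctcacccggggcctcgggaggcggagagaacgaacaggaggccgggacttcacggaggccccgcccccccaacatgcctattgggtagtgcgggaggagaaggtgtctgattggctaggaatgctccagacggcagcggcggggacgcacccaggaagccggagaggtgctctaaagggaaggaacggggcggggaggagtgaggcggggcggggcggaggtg
CTSF held CACGTG with its first base 123 and 51 bases before the start. CTSA held it 42 and 25 bases before the start, the nearer copy inside TCACGTGA, and GNPTG held TCACGTGA with the CACGTG 12 bases before the start and a second CACGTG from base 4 after it. The windows of CTSH and NPC2 did not hold these letters. A match is a description of the letters and not a measured binding site.

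Total counts ran from 16970486 to 18209213 per library, so that 3 counts, the limit that a count of 0 allows, were worth 0.165 to 0.177 CPM (the deposited count scaled to a library total of 1000000). MHCC97L replicate 1 stood apart from the other libraries. Across 12126 genes, its deviation from the mean of the 9 libraries correlated with transcript GC content at a Spearman rho of -0.78, against -0.25 to 0.70 in the other 8 libraries. Named results can move with it, also across the threshold. Beside many of them stands the value without it, with a correction for GC content and transcript length, or both. Of 11 hepatocyte markers, ALB, AFP, APOB and TTR were at 0 counts in all 9 libraries, and KRT8 and KRT18 carried nearly all of the summed level, which spanned 3369.8 to 5975 CPM in MHCC97L, 4689 to 6378 CPM in MHCC97L-Src and 2989.6 to 3205 CPM in MHCC97L-Oxa.

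Of the 113 Lysosome genes, 107 exceeded 3 counts in at least 1 library. The 6 that did not were CTSE, CTSG, CTSW, DNASE2B, NAPSA and PSAPL1. A filter on low counts left 99 members in the comparison of MHCC97L-Src with MHCC97L, 101 in that of MHCC97L-Oxa with MHCC97L and 100 between the resistant lines, and 12 members entered no comparison. Per transcript length (FPKM, as deposited, mean of 9 libraries), the most abundant member was PSAP, the precursor of the saposins that help lipid hydrolases reach their substrates, at 812.7. It was followed by the aspartic protease CTSD at 565.5, the cysteine protease CTSZ at 326.5 and the tetraspanin CD63 at 249.7. These 4 genes held 40.9% of the summed FPKM of the members.

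The summed level of the Lysosome genes was higher in both resistant lines. The MHCC97L libraries summed to 12902 ± 803 CPM, those of MHCC97L-Src to 18139.7 ± 359 CPM and those of MHCC97L-Oxa to 15541 ± 22.1 CPM (SD, n = 3 each), and no libraries of different lines overlapped. Without PSAP and CTSD the sums were 10135 ± 376, 12037 ± 295 and 11533 ± 96.0 CPM, and the ranges of MHCC97L (9855 to 10562), MHCC97L-Oxa (11428 to 11616) and MHCC97L-Src (11786 to 12361) again did not overlap. The 54 genes classed with the hydrolases summed to 5504 ± 509, 8001 ± 256 and 7025 ± 25.3 CPM. The sorting genes summed to 2823 ± 60.0 CPM in MHCC97L, above 2579 ± 113 CPM in MHCC97L-Src and 2441 ± 6.26 CPM in MHCC97L-Oxa, without overlap between parent and resistant lines. Summed as FPKM, per transcript length, the same sorting genes stood at 571 to 695 in MHCC97L, 663 to 677 in MHCC97L-Src and 611 to 620.2 in MHCC97L-Oxa, so on that scale the parent overlapped both resistant lines. The FPKM sums of all members (3522 to 4296, 5508 to 5675 and 4749.9 to 4797 in the same order) kept the 3 lines apart. The sums are descriptions and carry no test, and in bulk RNA fewer expressing cells and less RNA per cell cannot be told apart.

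In MHCC97L-Src against MHCC97L, 2 proteases rose and no Lysosome gene fell at an adjusted p under 0.05 (edgeR quasi-likelihood test, Benjamini-Hochberg over all genes tested). The 2 of 99 members stood beside 1.43% of all 12037 genes called higher and 0.698% called lower. At an unadjusted p under 0.05 alone 24 members were higher, beside 9.4% of all genes, and 10 were lower, beside 20.1%. DESeq2 called 16 higher, beside 6.01%, and 9 lower, beside 11.6%. By a looser rule, which asked for a log2 fold change beyond 1 in size with an unadjusted p under 0.05, 10 members were higher, beside 5.74% of all genes, and 10 were lower, beside 18.9%. The members that met the looser rule upwards were 6 hydrolases (CTSF, CTSH, FUCA1, GAA, HYAL1 and MAN2B1), PSAP, NPC2, CD63 and GNPTG. Those that met it downwards were ENTPD4 and 9 sorting genes. The median log2 fold change was 0.12 over the 99 members and -0.16 over all genes tested.

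In MHCC97L-Oxa against MHCC97L, 1 protease rose and no member fell at an adjusted p under 0.05, among 101 tested (edgeR). All 12064 genes tested gave 0.771% called higher and 0.182% called lower. An unadjusted p under 0.05 alone marked 21 members as higher, beside 8.84% of all genes, and 10 as lower, beside 13.6%. DESeq2 called 10 higher, beside 4.83% of the 11829 genes to which it gave an adjusted p, and 2 lower, beside 2.74%. The looser rule gave 5 members higher (CTSF, CTSH, CD68, LAMP3 and LAPTM5), beside 4.63% of all genes, and 8 lower, beside 11.5%. The median log2 fold change was -0.05 over the members and -0.19 over all genes. By the adjusted and the looser rule of edgeR the upward shares of members lay near those of all genes.

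**Figure D1:**
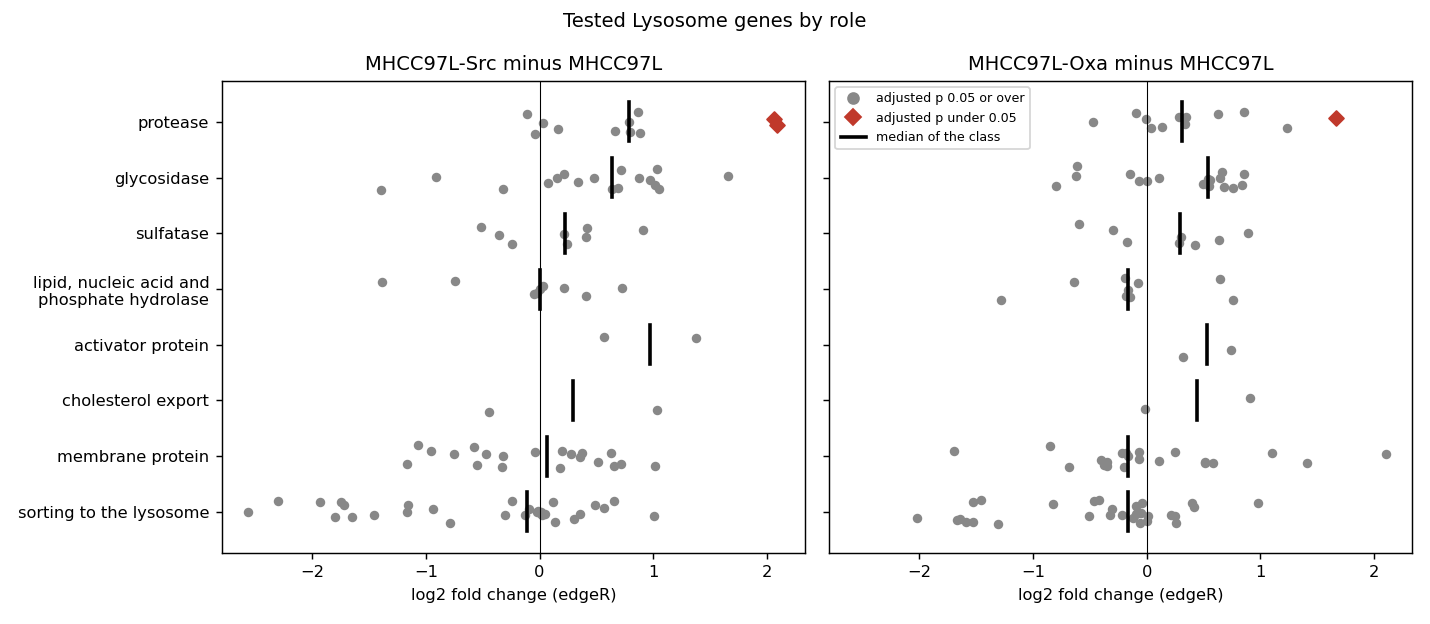
Log2 fold change (x axis) of each tested Lysosome gene by role (y axis), for MHCC97L-Src minus MHCC97L (left) and MHCC97L-Oxa minus MHCC97L (right). Each point is a gene, diamonds passed an adjusted p under 0.05 and the black bar is the median of the class. The protease median was 0.79 in the left panel and 0.31 in the right, while the sorting genes reached down to -2.56 and -2.02.

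Among the proteases, a positive log2 fold change was found for 9 of 11 tested members in MHCC97L-Src and for 9 of 12 in MHCC97L-Oxa. Over all genes tested it was found for 5136 of 12037 and 4730 of 12064. CTSF is a cysteine cathepsin (minus strand, chr11:66563463-66568841 on GRCh38, GENCODE 29). It measured 23.8, 34.9 and 29.6 CPM in MHCC97L replicates 1 to 3, 109.6, 137 and 111 CPM in MHCC97L-Src and 92.0, 96.7 and 91.7 CPM in MHCC97L-Oxa. All 6 resistant libraries lay above all 3 MHCC97L libraries. CTSF rose by a log2 fold change of 2.09 ± 0.29 (SE) in MHCC97L-Src (edgeR adjusted p = 0.014). In MHCC97L-Oxa it rose by 1.67 ± 0.25 (adjusted p = 0.031). Leaving out MHCC97L replicate 3, MHCC97L-Src replicate 2 or MHCC97L-Src replicate 3 ended the first call (adjusted p = 0.060 to 0.075), and leaving out MHCC97L replicate 3 or any MHCC97L-Oxa library ended the second (adjusted p = 0.14 to 0.23). With the GC content and length correction the folds were 1.61 and 1.34 (adjusted p = 0.0012 and 0.0027).

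CTSH, a cysteine cathepsin that also trims peptides from their amino end, was low in all lines (chr15:78921058-78949574, minus strand). It measured 1.47, 1.24 and 1.17 CPM in MHCC97L, 4.79, 4.89 and 5.86 CPM in MHCC97L-Src and 3.13, 3.07 and 2.81 CPM in MHCC97L-Oxa. The 3 lines did not overlap. CTSH rose by 2.07 ± 0.41 in MHCC97L-Src (edgeR adjusted p = 0.044), and its log2 fold change in MHCC97L-Oxa was 1.23 ± 0.36 (adjusted p = 0.16). Without MHCC97L replicate 1 the latter was 1.37 (adjusted p = 0.028), and with the correction it was 0.97 (adjusted p = 0.066). Leaving out MHCC97L replicate 3 or any MHCC97L-Src library ended the call in MHCC97L-Src (adjusted p = 0.15 to 0.18). CTSD, the most abundant protease, measured 740.5, 1153 and 1293 CPM in MHCC97L, 1757, 2086 and 1694 CPM in MHCC97L-Src and 1151, 1161 and 1184 CPM in MHCC97L-Oxa. The MHCC97L-Src libraries lay above the others, and those of MHCC97L and MHCC97L-Oxa overlapped (log2 fold change 0.86, adjusted p = 0.13, and 0.13, adjusted p = 0.77). For MHCC97L-Oxa the sign of CTSD turned, to -0.01 without MHCC97L replicate 1 and to -0.21 with the correction.

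**Figure D2:**
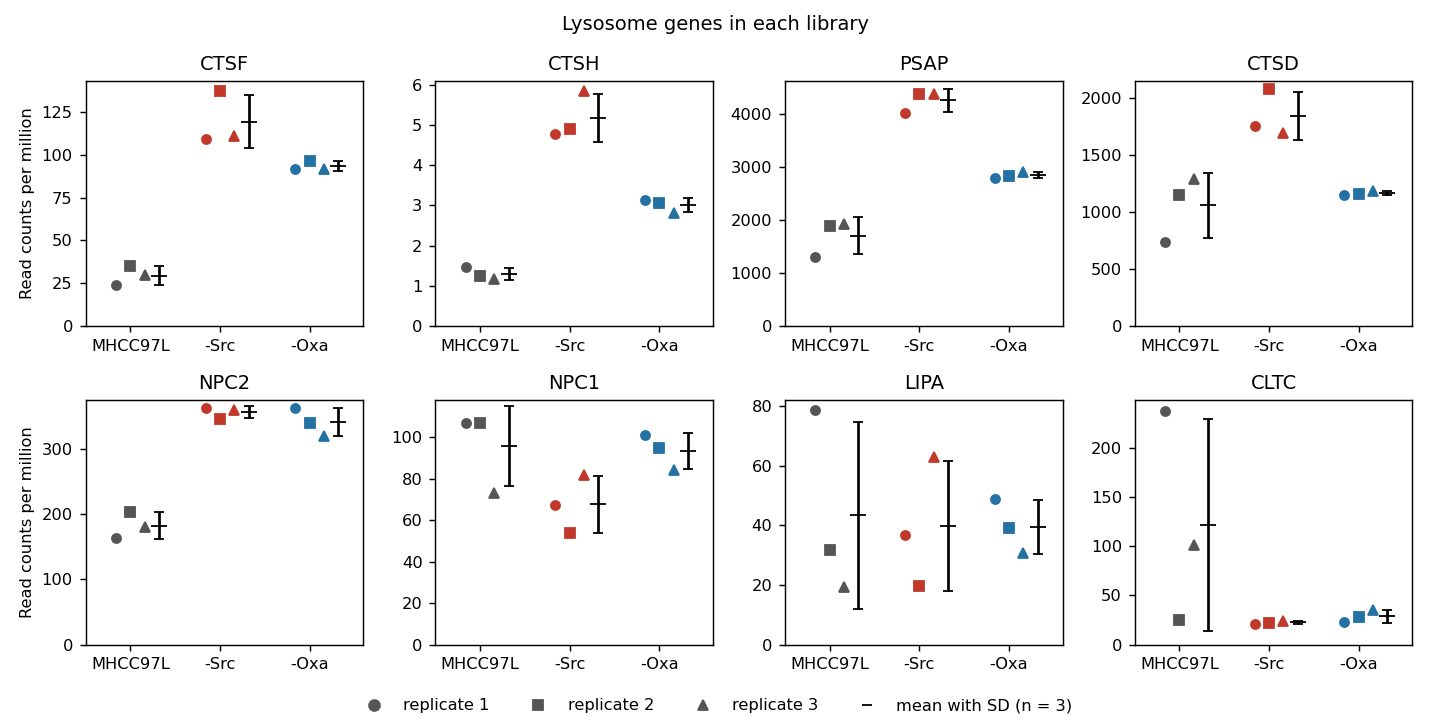
CPM (y axis, linear from 0) of 8 Lysosome genes in the 9 libraries of MHCC97L, MHCC97L-Src and MHCC97L-Oxa (x axis), with marker shapes for replicate numbers and the mean with SD (n = 3). CTSF, CTSH, PSAP and NPC2 were lowest in the 3 MHCC97L libraries, whereas CLTC and LIPA were highest in MHCC97L replicate 1, at 238 and 79.0 CPM.

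Among the glycosidases, none of the 17 tested members passed an adjusted p under 0.05 against MHCC97L in either line, while fold changes were positive for 14 of them in MHCC97L-Src and for 11 in MHCC97L-Oxa. Over all genes 5136 of 12037 and 4730 of 12064 were positive. Without adjustment, 8 glycosidases were higher in MHCC97L-Src at p under 0.05, and 6 were higher and 1 lower in MHCC97L-Oxa, where all genes gave 9.4% higher in the former and 8.84% higher and 13.6% lower in the latter. DESeq2 called 7 and 3 higher, beside 6.01% and 4.83%, and none lower. FUCA1, which removes fucose from glycoproteins, measured 18.1, 15.9 and 10.5 CPM in MHCC97L, 40.1, 32.3 and 62.9 CPM in MHCC97L-Src and 29.3, 24.0 and 20.8 CPM in MHCC97L-Oxa. No libraries of MHCC97L overlapped those of the resistant lines (log2 fold change 1.66 ± 0.35, adjusted p = 0.051, and 0.76 ± 0.33, adjusted p = 0.22). Without MHCC97L replicate 1 FUCA1 passed in both lines, at 1.81 (adjusted p = 0.016) and 0.95 (adjusted p = 0.0496). With the correction it passed at 1.75 (adjusted p = 0.0025) and 0.80 (adjusted p = 0.023). HEXA, the alpha subunit of beta-hexosaminidase, whose loss causes Tay-Sachs disease, had the highest FPKM of the class. It measured 115, 169 and 189 CPM in MHCC97L, 281, 333 and 274 CPM in MHCC97L-Src and 247, 255 and 258 CPM in MHCC97L-Oxa, again without overlap with MHCC97L (log2 fold change 0.97, adjusted p = 0.10, and 0.68, adjusted p = 0.20). HEXA passed an adjusted p under 0.05 in both lines without MHCC97L replicate 1, and in neither with the correction.

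Neither the sulfatase class nor the enzymes of lipids, nucleic acids and phosphate esters held a member past an adjusted p under 0.05 (edgeR). At an unadjusted p under 0.05 alone, 2 of their 17 tested members were higher and 1 lower in MHCC97L-Src, and 4 were higher and 2 lower in MHCC97L-Oxa, while DESeq2 called 1 higher and 1 lower in the former and 1 higher in the latter. Over all genes the unadjusted shares were 9.4% and 20.1%, then 8.84% and 13.6%, and those of DESeq2 6.01% and 11.6%, then 4.83%. In the class of lipid, nucleic acid and phosphate ester enzymes the median log2 fold change was 0.0031 in MHCC97L-Src and -0.16 in MHCC97L-Oxa. DNASE2, which cuts DNA in the lysosome, measured 68.7, 99.4 and 95.7 CPM in MHCC97L, 137, 142 and 139 CPM in MHCC97L-Src and 130.3, 147 and 136 CPM in MHCC97L-Oxa. Its resistant libraries lay above those of MHCC97L with log2 fold changes of 0.73 and 0.65 (adjusted p = 0.12 and 0.20). Without MHCC97L replicate 1 they were 0.57 (adjusted p = 0.082) and 0.55 (adjusted p = 0.0078). With the correction they were 0.36 (adjusted p = 0.061) and 0.36 (adjusted p = 0.052). ENTPD4, an apyrase that splits nucleoside diphosphates, was at 45.5 CPM in MHCC97L replicate 1 and at 7.13 to 16.1 CPM in the other 8 libraries, with the 6 resistant ones at 11.7 CPM or below. It did not pass the adjusted threshold (log2 fold change -1.39, adjusted p = 0.12, and -1.28, adjusted p = 0.20). Without MHCC97L replicate 1 its values were -0.75 and -0.59, and with the GC content and length correction it fell to log2 fold changes of -0.69 and -0.70 (adjusted p = 0.045 in both). Its locus overlaps the coding gene LOXL2 on the same strand.

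PSAP (chr10:71816298-71851375, minus strand) measured 1297, 1885 and 1933 CPM in MHCC97L, 4016, 4382 and 4373 CPM in MHCC97L-Src and 2788, 2838 and 2904 CPM in MHCC97L-Oxa. The 3 lines did not overlap. Its log2 fold change of 1.38 ± 0.29 in MHCC97L-Src had an adjusted p of 0.051 and that of 0.74 ± 0.25 in MHCC97L-Oxa one of 0.20. Without MHCC97L replicate 1 the folds were 1.22 (adjusted p = 0.0054) and 0.63 (adjusted p = 0.0025). The other tested activator, GM2A, which presents gangliosides to hexosaminidase, had log2 fold changes of 0.57 (adjusted p = 0.17) and 0.32 (adjusted p = 0.38).

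The cholesterol export pair differed in the sign of its fold changes. NPC2 (chr14:74476192-74494177, minus strand) measured 163, 204 and 179.7 CPM in MHCC97L, 363, 346 and 360.2 CPM in MHCC97L-Src and 363, 340.5 and 321 CPM in MHCC97L-Oxa. All resistant libraries lay above all MHCC97L libraries, and the resistant lines overlapped each other. Against MHCC97L the log2 fold change of NPC2 was 1.03 ± 0.22 for MHCC97L-Src (adjusted p = 0.053) and 0.91 ± 0.20 for MHCC97L-Oxa (adjusted p = 0.084), so neither passed. Without MHCC97L replicate 1 both passed, at 0.95 (adjusted p = 0.012) and 0.88 (adjusted p = 0.0032), and with the GC content and length correction neither did, at 1.40 (adjusted p = 0.056) and 1.08 (adjusted p = 0.084).

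NPC1 (chr18:23506184-23586898, minus strand) measured 107, 107 and 73.3 CPM in MHCC97L, 67.3, 53.7 and 81.6 CPM in MHCC97L-Src and 101, 95.0 and 84.1 CPM in MHCC97L-Oxa. Both resistant lines overlapped MHCC97L, while all MHCC97L-Src libraries lay below all MHCC97L-Oxa libraries. Its log2 fold changes were -0.44 ± 0.25 for MHCC97L-Src (adjusted p = 0.26) and -0.02 ± 0.22 for MHCC97L-Oxa (adjusted p = 0.96), the latter changing sign with the processing. The coding gene RMC1 overlaps NPC1 on the other strand. LIPA, which frees the cholesterol that this pair moves, measured 79.0, 31.9 and 19.3 CPM in MHCC97L, 36.7, 19.6 and 62.9 CPM in MHCC97L-Src and 48.8, 39.1 and 30.7 CPM in MHCC97L-Oxa. The lines overlapped throughout, and the log2 fold changes of -0.05 ± 0.53 (adjusted p = 0.95) and -0.08 ± 0.46 (adjusted p = 0.92) carried errors larger than themselves and changed sign with the processing.

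Membrane proteins entered the comparisons with 20 members for MHCC97L-Src and 21 for MHCC97L-Oxa, and none passed an adjusted p under 0.05 (edgeR). Unadjusted p-values under 0.05 marked 3 as higher in the former (all genes 9.4%), and 4 were higher and 1 lower in the latter (all genes 8.84% and 13.6%). DESeq2 called 1 and 2 higher, beside 6.01% and 4.83%. CD63, a tetraspanin of late endosomes and lysosomes, measured 299.5, 464 and 487 CPM in MHCC97L, 765, 929 and 714 CPM in MHCC97L-Src and 605, 625 and 649 CPM in MHCC97L-Oxa. The 3 lines did not overlap (log2 fold change 1.01, adjusted p = 0.10, and 0.59, adjusted p = 0.22). Without MHCC97L replicate 1 CD63 passed in both, at 0.82 (adjusted p = 0.044) and 0.45 (adjusted p = 0.0077). With the correction the values were 0.61 (adjusted p = 0.024) and 0.27 (adjusted p = 0.11). CD68, a heavily glycosylated lysosomal protein best known from macrophages, measured 48.8, 73.7 and 79.4 CPM in MHCC97L, 86.5, 89.4 and 71.8 CPM in MHCC97L-Src and 143, 146 and 146 CPM in MHCC97L-Oxa. It was highest in MHCC97L-Oxa without overlap, with a log2 fold change of 1.11 ± 0.26 over MHCC97L (adjusted p = 0.096). Without MHCC97L replicate 1 it passed at 0.98 (adjusted p = 0.0011), and with the correction at 0.83 (adjusted p = 0.0063). LAPTM5, a lysosomal membrane protein of blood cells, measured 0.850, 1.52 and 0.779 CPM in MHCC97L, 2.08, 1.18 and 1.54 CPM in MHCC97L-Src and 4.45, 5.19 and 4.00 CPM in MHCC97L-Oxa. It too was highest in MHCC97L-Oxa, with a log2 fold change of 2.11 ± 0.45 over MHCC97L (adjusted p = 0.078). LAPTM5 also passed there without MHCC97L replicate 1, and it passed with the correction. Of 8 leukocyte markers, PTPRC, CD3E, LYZ, TYROBP and AIF1 were at 0 counts in all 9 libraries, and CD14 and CSF1R carried nearly all of the rest. CD14 stood at 0.906 to 1.11 CPM in MHCC97L and rose in MHCC97L-Src by 2.58 ± 0.43 (adjusted p = 0.024) and in MHCC97L-Oxa by 2.24 ± 0.39 (adjusted p = 0.043) on the log2 scale. CSF1R, the receptor of a macrophage growth factor, was lowest in MHCC97L-Src and highest in MHCC97L, at 9.63, 13.1 and 12.3 CPM in MHCC97L, 1.67, 3.30 and 2.22 CPM in MHCC97L-Src and 7.69, 7.48 and 7.26 CPM in MHCC97L-Oxa. Its 3 lines did not overlap, and its log2 fold change was -2.21 ± 0.47 for MHCC97L-Src (adjusted p = 0.054) and -0.64 for MHCC97L-Oxa (adjusted p = 0.28). With the correction CSF1R fell by 2.49 in the former (adjusted p = 0.0041) and fell by 0.79 in the latter (adjusted p = 0.024), and it was lower in MHCC97L-Src than in MHCC97L-Oxa, at -1.57 ± 0.29 (adjusted p = 0.013). The summed level of the list spanned 10.5 to 14.1 CPM in MHCC97L, 7.33 to 9.43 CPM in MHCC97L-Src and 11.9 to 12.8 CPM in MHCC97L-Oxa. The part of these markers in the values of CD68 and LAPTM5 was not tested. MFSD8, a transporter mutated in a form of Batten disease, reached 6.40 CPM in MHCC97L replicate 1 and 0.558 to 1.78 CPM in the other 8 libraries (log2 fold change -1.69 in MHCC97L-Oxa, adjusted p = 0.22). Without that library this value was -0.49, and with the correction it was -0.45.

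No sorting gene passed an adjusted p under 0.05 against MHCC97L (edgeR). At an unadjusted p under 0.05 alone 1 was higher and 9 lower in MHCC97L-Src, and 1 was higher and 6 lower in MHCC97L-Oxa, and DESeq2 called 1 higher and 8 lower in the former and 1 higher and 2 lower in the latter. For lower genes the shares over all genes were 20.1% and 13.6% unadjusted and 11.6% and 2.74% by DESeq2, and for higher genes 9.4%, 8.84%, 6.01% and 4.83% in the same order. GNPTG, a subunit of the enzyme that starts the mannose 6-phosphate tag, measured 24.9, 28.8 and 32.8 CPM in MHCC97L, 53.3, 61.5 and 50.4 CPM in MHCC97L-Src and 54.6, 55.2 and 60.0 CPM in MHCC97L-Oxa. All resistant libraries lay above those of MHCC97L (log2 fold change 1.01 ± 0.29, adjusted p = 0.098, and 0.98 ± 0.24, adjusted p = 0.12). GNPTG passed an adjusted p under 0.05 in both lines without MHCC97L replicate 1, and in both with the correction. CLTC, the clathrin heavy chain, measured 238, 24.8 and 101 CPM in MHCC97L, 21.3, 22.1 and 24.2 CPM in MHCC97L-Src and 22.5, 27.8 and 35.3 CPM in MHCC97L-Oxa. MHCC97L replicate 2 lay within 1 CPM of the highest MHCC97L-Src library and inside the range of MHCC97L-Oxa, and the log2 fold changes of -2.30 ± 0.63 (adjusted p = 0.093) and -2.02 ± 0.65 (adjusted p = 0.19) became -1.40 (adjusted p = 0.10) and -1.07 (adjusted p = 0.23) without MHCC97L replicate 1 and -0.93 and -0.93 with the GC content and length correction. AP4E1, a large subunit of the AP-4 adaptor, measured 19.0, 1.97 and 9.68 CPM in MHCC97L, 1.42 to 1.67 CPM in MHCC97L-Src and 2.03 to 3.83 CPM in MHCC97L-Oxa, and its log2 fold change of -2.56 in MHCC97L-Src (adjusted p = 0.098) became -1.79 without that replicate and -1.02 with the correction. In MHCC97L-Oxa its value of -1.67 (adjusted p = 0.22) became -0.85 and -0.49. GNPTAB, which encodes the catalytic part of the tagging enzyme, likewise stood at 77.2 CPM in MHCC97L replicate 1 and at 7.21 CPM in replicate 2, and its log2 fold changes of -1.93 and -1.53 became -0.88 and -0.44 without replicate 1. The mannose 6-phosphate receptors M6PR and IGF2R overlapped across all 3 lines, with 209.5 to 396 and 206 to 339 CPM over the 9 libraries.

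AP1M2, the medium subunit of the AP-1 adaptor found in epithelial cells, was picked out after its values were seen. It measured 59.5, 94.7 and 111 CPM in MHCC97L, 32.8, 34.7 and 24.5 CPM in MHCC97L-Src and 29.6, 29.6 and 32.9 CPM in MHCC97L-Oxa. All resistant libraries lay below all MHCC97L libraries, and MHCC97L replicate 1 was here the lowest of its group. Its log2 fold change was -1.46 ± 0.34 in MHCC97L-Src (adjusted p = 0.074) and -1.53 ± 0.30 in MHCC97L-Oxa (adjusted p = 0.064). With the GC content and length correction AP1M2 fell by 1.85 and by 1.81 on the log2 scale (adjusted p = 0.0022 and 0.0020), and without MHCC97L replicate 1 it fell by 1.67 and by 1.68 (adjusted p = 0.0040 and 0.00082).

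Fold changes of the Lysosome genes followed the GC content of their transcripts. Across the 99 tested members the Spearman rho between GC content and log2 fold change was 0.65 for MHCC97L-Src against MHCC97L, and across 101 members it was 0.50 for MHCC97L-Oxa, beside 0.69 and 0.63 across all genes with a value. Genes are not independent replicates, and these are descriptions. The 52 members at 50% GC or more had a median log2 fold change of 0.49 for MHCC97L-Src and of 0.32 for MHCC97L-Oxa, while the 47 and 49 members under 50% had medians of -0.33 and -0.32. After the GC content and length correction rho was -0.08 and -0.13 over the members, and the medians on either side of 50% were 0.20 and 0.21 for MHCC97L-Src, with 0.16 and 0.16 for MHCC97L-Oxa. Without MHCC97L replicate 1 and with no correction rho was 0.30 and 0.037 over the members. Across all genes with a value it remained at 0.455 and 0.248.

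**Figure D3:**
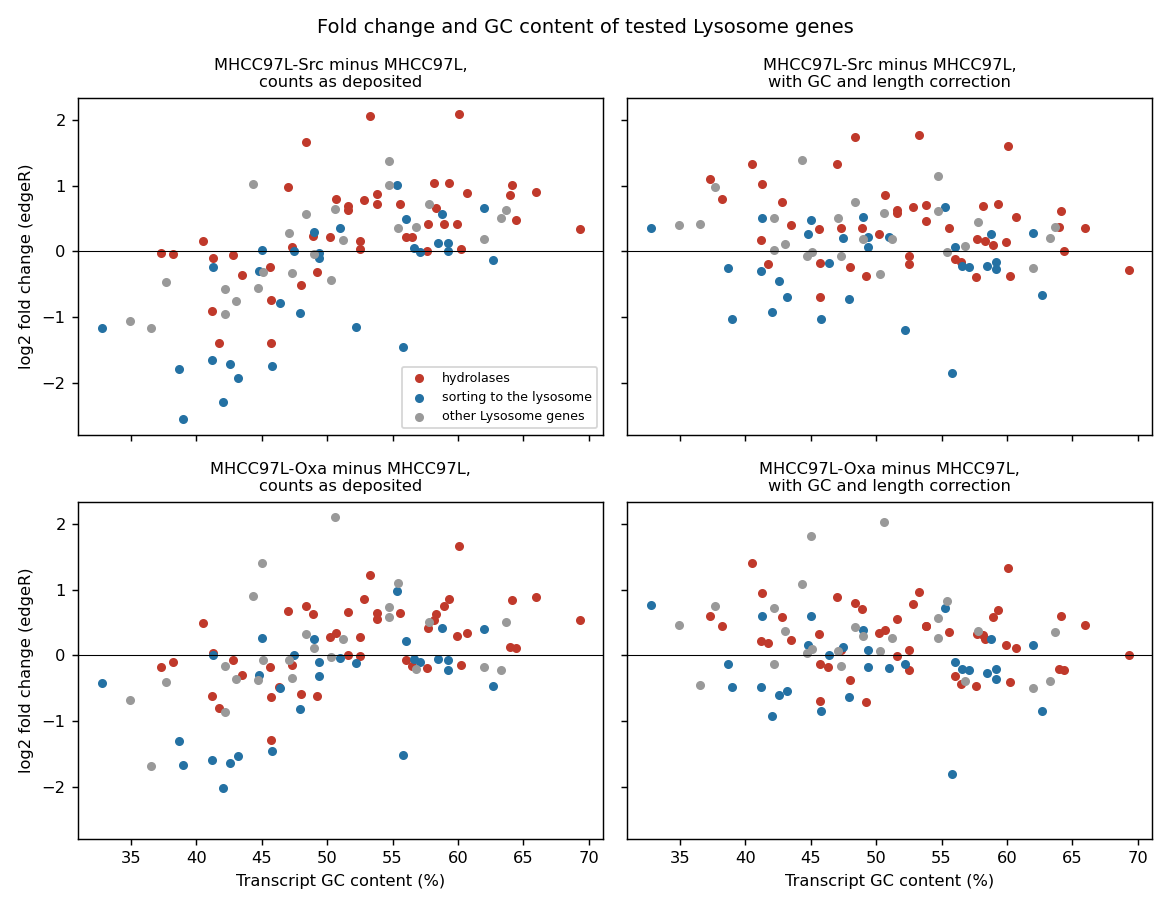
Log2 fold change (y axis) against transcript GC content in percent (x axis) for the tested Lysosome genes, MHCC97L-Src minus MHCC97L above and MHCC97L-Oxa minus MHCC97L below, from the counts as deposited (left) and with the GC content and length correction (right). Red points are hydrolases, blue points sorting genes and grey points the others. The upward slope of the left panels (rho 0.65 and 0.50) is not seen on the right (rho -0.08 and -0.13).

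With the correction, 14 members rose and 4 fell in MHCC97L-Src at an adjusted p under 0.05, beside 5.49% and 5.12% of all genes tested. The 14 included the proteases CTSA, CTSF, CTSH and TPP1, the glycosidases FUCA1, GAA, GUSB, HYAL1 and MAN2B1, and PSAP, CD63, LAMP2 and GNPTG. The 4 were AP1M2, CLTB, CLTCL1 and ENTPD4. LAMP2, a major glycoprotein of the lysosomal membrane, turned direction with the correction, from a log2 fold change of -0.47 (adjusted p = 0.59) to 0.98 (adjusted p = 0.031). It stood at 138 CPM in MHCC97L replicate 1 and at 23.7 to 55.9 CPM in the other 8 libraries, and without that replicate its value was 0.64 (adjusted p = 0.21). In MHCC97L-Oxa 14 rose and 8 fell, beside 6.48% and 6.43%. CTSF, FUCA1, GAA, GUSB, MAN2B1, PSAP, TPP1 and GNPTG were again among those that rose. The membrane proteins CD68, LAMP3 and LAPTM5 were also among them. MAN2B1, the lysosomal alpha-mannosidase, measured 56.5, 85.2 and 85.9 CPM in MHCC97L, 152, 159.8 and 136 CPM in MHCC97L-Src and 131, 142 and 139 CPM in MHCC97L-Oxa, and rose by 0.72 (adjusted p = 0.0099) and by 0.69 (adjusted p = 0.0085) on the log2 scale. GAA, the acid alpha-glucosidase that degrades glycogen, measured 30.6, 46.1 and 43.8 CPM in MHCC97L and 70.1 to 85.3 CPM in the resistant lines, and rose by 0.62 (adjusted p = 0.021) and by 0.60 (adjusted p = 0.017). The 8 that fell in MHCC97L-Oxa included GLA, the alpha-galactosidase lost in Fabry disease, at -0.70 (adjusted p = 0.0082), and SMPD1, the acid sphingomyelinase, at -0.40 (adjusted p = 0.046). Hydrolases made up 10 of the 14 that rose in MHCC97L-Src and 8 of the 14 in MHCC97L-Oxa, and 1 of the 4 and 5 of the 8 that fell. They were 45 of the 99 members tested in MHCC97L-Src and 46 of the 101 in MHCC97L-Oxa.

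Without MHCC97L replicate 1, 12 members rose and 1 fell in MHCC97L-Src, beside 3.58% and 1.94% of all 12171 genes tested. In MHCC97L-Oxa 29 members rose and 6 fell, beside 11.9% and 6.6% of all 12168 genes. The 29 included 9 glycosidases, 7 membrane proteins and 5 proteases, with MANBA, the beta-mannosidase, at a log2 fold change of 1.35 and the proteases CTSB at 0.74 and CTSZ at 0.56. The median log2 fold change of the members was then 0.17 for MHCC97L-Src and 0.23 for MHCC97L-Oxa, beside -0.04 and 0.00097 over all genes.

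The resistant lines also differed from each other. Between MHCC97L-Src and MHCC97L-Oxa, 6 of 100 members were higher and 3 lower in MHCC97L-Src at an adjusted p under 0.05 (edgeR), beside 2.12% and 2.52% of all 11994 genes tested. The looser rule gave 0 members higher, beside 1.49%, and 2 lower (CLTCL1 and LAPTM5), beside 2.52%. With an unadjusted p under 0.05 alone 21 members were higher, beside 9.75%, and 10 lower, beside 9.76%, and DESeq2 called 9 higher, beside 3.27%, and 3 lower, beside 3.73%. The median log2 fold change was 0.05 over the members and -0.02 over all genes. No library of MHCC97L enters this comparison, but its fold changes also followed transcript GC content. Spearman rho was 0.52 over the 100 members and 0.45 over all genes with a value. Members at 50% GC or more had a median of 0.17, and those under 50% one of -0.10. With the GC content and length correction rho was 0.13 and -0.00054. Marker genes of cell types differed here too. The fibroblast list summed to 70.3 to 89.2 CPM in MHCC97L-Src, 137 to 154 CPM in MHCC97L-Oxa and 106 to 202 CPM in MHCC97L, and its member DCN, a matrix proteoglycan, was lower in MHCC97L-Src than in MHCC97L-Oxa, at -1.89 ± 0.26 on the log2 scale (adjusted p = 0.0029). The keratins KRT8 and KRT18 were higher in MHCC97L-Src by 0.87 and 0.91 (adjusted p = 0.014 and 0.0047). SERPINA1, the other hepatocyte marker tested, was at -0.42 (adjusted p = 0.69). Against MHCC97L, SERPINA1 rose in MHCC97L-Oxa by 4.14 (adjusted p = 0.032), from 1 count per library to 14 to 31 counts. There KRT8 and KRT18 were at -0.94 and -0.33 (adjusted p = 0.18 and 0.45). The part of these marker genes in the differences of the Lysosome genes was not tested.

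The 6 members higher in MHCC97L-Src were 3 proteases, a glycosidase, an activator and a membrane transporter. FUCA1 was higher by a log2 fold change of 0.91 ± 0.22 (adjusted p = 0.048), CTSD by 0.73 ± 0.13 (adjusted p = 0.012) and PSAP by 0.64 ± 0.11 (adjusted p = 0.0078), all from the values above and with no overlap between the lines. ABCB9, which carries peptides into the lysosome, measured 41.1, 47.5 and 44.6 CPM in MHCC97L-Src and 28.8, 26.4 and 28.5 CPM in MHCC97L-Oxa, with 25.9 to 37.5 CPM in MHCC97L. It was higher in MHCC97L-Src by 0.73 ± 0.15 (adjusted p = 0.021).

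CTSA, a carboxypeptidase that also protects beta-galactosidase and neuraminidase, measured 651, 727 and 589 CPM in MHCC97L-Src and 459.7, 471 and 476 CPM in MHCC97L-Oxa, with 272 to 427 CPM in MHCC97L. The difference was 0.55 ± 0.13 (adjusted p = 0.039). TPP1, which removes tripeptides from proteins, measured 398, 378 and 363 CPM in MHCC97L-Src and 286, 301 and 283 CPM in MHCC97L-Oxa, with 216 to 246 CPM in MHCC97L. The difference was 0.45 ± 0.10 (adjusted p = 0.039), and for both genes the 3 lines did not overlap.

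The 3 members lower in MHCC97L-Src were LAPTM5 at -1.45 ± 0.29 (adjusted p = 0.018), CLTCL1 at -1.04 ± 0.19 (adjusted p = 0.012) and CD68 at -0.75 ± 0.13 (adjusted p = 0.012). CLTCL1, a second clathrin heavy chain, measured 8.14, 5.95 and 8.25 CPM in MHCC97L-Src, 16.1, 17.2 and 14.2 CPM in MHCC97L-Oxa and 19.9, 19.8 and 12.4 CPM in MHCC97L. It was lower in MHCC97L-Src than in every library of the other lines. CLTA, the clathrin light chain with the highest FPKM of the sorting genes, was at 352 to 419 CPM in MHCC97L-Src and 298 to 319.7 CPM in MHCC97L-Oxa (log2 fold change 0.39, adjusted p = 0.11). NPC1 differed by -0.42 ± 0.14 (adjusted p = 0.13), which passed with the GC content and length correction (adjusted p = 0.012). NPC2 differed by 0.12 ± 0.10 (adjusted p = 0.56) and LIPA by 0.03 ± 0.32 (adjusted p = 0.97).

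**Figure D4:**
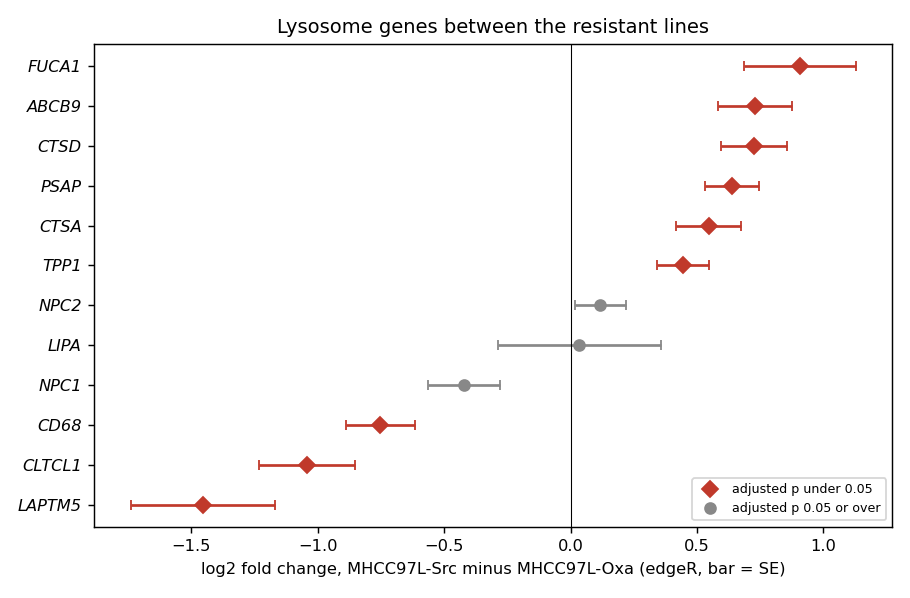
Log2 fold change of MHCC97L-Src minus MHCC97L-Oxa (x axis, bars are SE) for the 9 Lysosome genes that passed an adjusted p under 0.05 (diamonds) and for NPC1, NPC2 and LIPA (circles). Values ran from -1.45 for LAPTM5 to 0.91 for FUCA1.

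The 9 calls rested on single libraries. Without MHCC97L-Oxa replicate 1 or replicate 2 no member passed, without MHCC97L-Src replicate 1 LAPTM5 alone did, without MHCC97L-Oxa replicate 3 there were 3, and without MHCC97L-Src replicate 2 or 3 there were 14 and 23. Across the omissions the log2 fold changes kept their direction, from 0.55 to 0.68 for PSAP and from -1.69 to -1.33 for LAPTM5. With the GC content and length correction 10 members were higher, beside 4.49% of all genes, and 6 lower, beside 5.13%. TPP1 was not among those 10.

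Genes around the lysosome were read from lists of related function. Of 25 genes of the proton pump that acidifies the lysosome, 22 were tested against MHCC97L in each line. In MHCC97L-Src 1 fell, beside 0.698% of all genes, namely ATP6V0A4, a subunit best known from kidney and inner ear. It measured 3.34, 2.37 and 1.72 CPM in MHCC97L and 0.173 to 0.398 CPM in MHCC97L-Src (log2 fold change -2.90 ± 0.53, edgeR adjusted p = 0.033). The MHCC97L-Src libraries held 3, 6 and 7 counts of ATP6V0A4, the lowest at the limit of 3 that a count of 0 allows. The MHCC97L-Oxa libraries measured 0.335 to 0.769 CPM (log2 fold change -2.31, adjusted p = 0.084). At an unadjusted p under 0.05 alone 2 pump genes were higher and 4 lower in MHCC97L-Src, beside 9.4% and 20.1% of all genes. In MHCC97L-Oxa 3 were higher and 3 lower, beside 8.84% and 13.6%. DESeq2 called 1 higher and 2 lower in the former, beside 6.01% and 11.6%, and 1 lower in the latter, beside 2.74%. Of 21 pump genes tested between the resistant lines, ATP6V0A1 was higher in MHCC97L-Src by 0.58 ± 0.11 (adjusted p = 0.013), beside 2.12% of all genes called higher. Unadjusted, 4 were higher and 2 lower, beside 9.75% and 9.76%, and DESeq2 called 1 higher, beside 3.27%. With the GC content and length correction ATP6V0A4 fell in both lines, to log2 fold changes of -2.73 (adjusted p = 0.0086) and -2.21 (adjusted p = 0.013), and ATP6V1C2 rose in both, by 1.91 (adjusted p = 0.0091) and 1.62 (adjusted p = 0.012). In MHCC97L-Oxa ATP6V0A1 then fell by 0.51 (adjusted p = 0.027) and ATP6V0C fell by 0.64 (adjusted p = 0.0069), and ATP6V0C was higher in MHCC97L-Src than in MHCC97L-Oxa by 0.32 (adjusted p = 0.015). Of 24 genes that control lysosome formation and nutrient sensing, 22 were tested and none passed in any comparison on the counts as deposited (edgeR), while with the correction LAMTOR1, a part of the Ragulator complex, fell by 0.47 in MHCC97L-Oxa (adjusted p = 0.045). Without adjustment, at p under 0.05, 3 were lower in MHCC97L-Src, 4 lower in MHCC97L-Oxa and 3 higher in MHCC97L-Src than in MHCC97L-Oxa, and DESeq2 called 2 lower in MHCC97L-Src and none in the other comparisons. The shares over all genes were 20.1%, 13.6% and 9.75% without adjustment, and 11.6% lower by DESeq2 in MHCC97L-Src. TFEB ranged from 20.3 to 37.9 CPM over the 9 libraries, and TFE3 from 134 to 249 CPM.

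Of 11 genes of sterol transport outside the lysosome, ABCG1, which exports cholesterol from the cell, rose in both resistant lines. It measured 0.793, 1.07 and 1.72 CPM in MHCC97L, 24.5, 25.4 and 32.9 CPM in MHCC97L-Src and 25.1, 30.2 and 23.6 CPM in MHCC97L-Oxa. ABCG1 was higher by a log2 fold change of 4.57 ± 0.48 in the former (edgeR adjusted p = 0.0060) and by 4.45 ± 0.45 in the latter (adjusted p = 0.0090).

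Against MHCC97L, members whose window held CACGTG had higher median fold changes than those without it, and their transcripts were GC-richer. In MHCC97L-Src the median log2 fold change was 0.57 over 17 tested members with the letters and 0.01 over 59 without, with median transcript GC contents of 56.6% and 50.2%. In MHCC97L-Oxa the medians were 0.34 and -0.08. With the GC content and length correction the medians became 0.37 and 0.11 for MHCC97L-Src, with 0.27 and 0.10 for MHCC97L-Oxa. Between MHCC97L-Src and MHCC97L-Oxa the medians were 0.15 and 0.03, and with the correction they stood in the opposite order at 0.02 and 0.04. The part of GC content in this difference was not tested.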

How the data were processed

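The authors deposited 1 table of read counts and 1 of FPKM (fragments per kilobase of transcript, scaled for library size) for 9 libraries. Per the submitters' notes, reads were trimmed with Trimmomatic 0.36 and aligned with HISAT2 2.2.1.0 to GRCh38.p12. The counter, its strand setting and the annotation are not given in the sources used here. Genes that share reads with overlapping genes are therefore uncertain.

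The counts were tested per pair of lines with edgeR 4.0.16 (quasi-likelihood, TMM scaling, filterByExpr with a minimum count of 10, Benjamini-Hochberg over all genes) in R 4.3.3, and all adjusted p-values come from it unless another tool is named. Each comparison held 6 libraries. The script was tested on simulated data. FPKM served for levels between genes and, as log2(FPKM + 1) and log2(FPKM + 0.1), for limma 3.58.1. DESeq2 1.42.0, other filters and left-out libraries were alternatives. The GC content and length correction used per-library splines with 5 degrees of freedom on GENCODE 29 transcripts, matched for 13518 genes by RefSeq accession and 5825 by symbol, and for 113 of 113 members. Promoters came from RefSeq (GRCh38.p14) by NCBI gene number.

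The members, roles and gene lists were chosen with earlier results of these data known. Named genes are NPC1, NPC2 and LIPA, members past an adjusted p under 0.05, the largest rise and fall per role by the looser rule, the highest FPKM per role, and list genes past the adjusted threshold, of which some are not reported here. Beyond the rule, members that make up a small count are named, and AP1M2, GM2A, CTSB, CTSZ, MANBA, LAMP2, MAN2B1, GAA, GLA, SMPD1, GNPTAB, M6PR, IGF2R, CD14, CSF1R, DCN, KRT8, KRT18, SERPINA1, LAMTOR1, ATP6V1C2, ATP6V0C, TFEB, TFE3 and MITF were named after their values were seen. No 2 libraries of a line agreed within sampling noise (chi-square over its degrees of freedom 6.57 to 295). Endothelial markers summed to 0.879 to 2.22 CPM over the 9 libraries. Floors cover counting error only, while the SD and SE values hold the spread between libraries.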

Additional observations from a re-analysis of the deposited data

Results flagged for a closer look

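The effect relative to MHCC97L differed between the resistant lines for 9 Lysosome genes, by the direct edgeR test of MHCC97L-Src against MHCC97L-Oxa at an adjusted p under 0.05. Of 100 members 6 were higher and 3 lower, beside 2.12% and 2.52% of all 11994 genes tested. On the log2 scale the differences were 0.91 for FUCA1, 0.73 for ABCB9, 0.73 for CTSD, 0.64 for PSAP, 0.55 for CTSA and 0.45 for TPP1, and -0.75 for CD68, -1.04 for CLTCL1 and -1.45 for LAPTM5. In each, the 3 libraries of one line did not overlap the 3 of the other. The genes were selected by a test on these same libraries, so this adds no support.

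AP3S2, a small subunit of the AP-3 adaptor, was listed at 7.08 to 11.2 FPKM in the 9 libraries while its counts were 0 to 7. The gene overlaps the readthrough gene C15orf38-AP3S2 on the same strand, and how reads were assigned between the 2 was not tested.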

How the results depend on the processing

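Counts of Lysosome genes at an adjusted p under 0.05 moved the most. In MHCC97L-Src against MHCC97L (2 members, edgeR), they were 25 with DESeq2's Wald test, 4 with DESeq2 size factors, 8 with no filter on low counts, 8 with the replicate block, 26 with all 9 libraries in 1 fit, 5 with limma on log2(FPKM + 0.1), 18 with the GC content and length correction, 4 with that correction and the replicate block, and 0 to 24 when 1 library was left out (0 without MHCC97L replicate 3, MHCC97L-Src replicate 2 or replicate 3, 1 without MHCC97L-Src replicate 1, 13 without MHCC97L replicate 1 and 24 without replicate 2). In MHCC97L-Oxa against MHCC97L (1 member), they were 12 with DESeq2, 7 with all 9 libraries, 6 and 6 with limma at pseudocounts of 1 and 0.1, 22 with the correction, 10 with the correction and the replicate block, and 0 to 35 with 1 library left out (0 without MHCC97L replicate 3 or any MHCC97L-Oxa library, 35 without MHCC97L replicate 1 and 23 without replicate 2). Between the resistant lines (9 members), they were 0 with all 9 libraries, 16 with the correction and 0 to 23 with 1 library left out (0 without MHCC97L-Oxa replicate 1 or 2, 3 without MHCC97L-Oxa replicate 3, 1, 14 and 23 without MHCC97L-Src replicates 1, 2 and 3). Calls over all genes moved too. In MHCC97L-Src 1.43% were higher and 0.698% lower, against 6.01% and 11.6% with DESeq2 and 5.49% and 5.12% with the correction. Without MHCC97L replicate 1 they were 3.58% and 1.94%. In MHCC97L-Oxa 0.771% and 0.182% became 4.83% and 2.74%, 6.48% and 6.43%, and 11.9% and 6.6% in that order. Between the resistant lines 2.12% and 2.52% became 4.49% and 5.13% with the correction. Shares for the other settings are not given here.

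The looser rule gave 20 members in MHCC97L-Src, against 5 and 11 with limma at pseudocounts of 1 and 0.1, 13 with the correction, 10 with the correction and the replicate block, and 8 to 29 with 1 library left out. It gave 13 in MHCC97L-Oxa, against 5 and 7 with limma, 6 with the correction, 7 with the correction and the replicate block, and 6 to 22 with 1 library left out. It gave 2 between the resistant lines, against 0 with limma at a pseudocount of 1 and 1 to 4 with 1 library left out. With the correction the looser calls over all genes moved too. In MHCC97L-Src they went from 691 higher and 2275 lower to 641 and 684. In MHCC97L-Oxa they went from 558 and 1393 to 556 and 439. The median log2 fold change of the members stayed within the spread of the libraries in MHCC97L-Src. In MHCC97L-Oxa it was -0.05 and became 0.022 with DESeq2, 0.021 with its size factors, 0.0065 with the replicate block, 0.16 with the correction, 0.17 with the correction and the replicate block, and -0.065 to 0.23 with 1 library left out, so its sign is not settled. Between the resistant lines it became -0.031 with limma on log2(FPKM + 0.1).

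Fold changes were recomputed for 52 gene comparisons of named genes. CTSD in MHCC97L-Oxa, whose sign also turned, was not one of them. Of the 780 recomputed values, 560 kept direction and side of the threshold, 124 newly passed and 67 no longer passed. The other 29 changed sign, all of them in NPC1 or LIPA. NPC1 in MHCC97L-Oxa became 0.051 with DESeq2 and 0.051 with its size factors, 0.032 without the filter, 0.066 with the correction, 0.076 with the correction and the replicate block, and -0.17 to 0.20 with 1 library left out. LIPA in MHCC97L-Src became 0.042 with DESeq2, 0.042 with its size factors, 0.76 with the correction, 0.77 with the correction and the replicate block, and -0.48 to 0.65 with 1 library left out. LIPA in MHCC97L-Oxa became 0.0013 with DESeq2, 0.0012 with its size factors, 0.11 with the replicate block, 0.014 and 0.030 with limma, 0.58 with the correction, 0.63 with the correction and the replicate block, and -0.42 to 0.67 with 1 library left out. LIPA between the resistant lines became -0.075 with the replicate block, -0.071 and -0.086 with limma, and -0.41 to 0.31 with 1 library left out. The cause of these moves was not tested.

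The replicate numbers did not pair the libraries, since deviations of same-numbered libraries correlated at -0.65 to 0.44 over the comparisons. The replicate block gave 1 member at an adjusted p under 0.05 in MHCC97L-Oxa and 6 between the resistant lines. With 3 libraries a line and 1 parental library that stands apart, a member that missed the threshold is not shown to be unchanged.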
